A study of Erigeron canadensis with 32 samples.

Results

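The early transcript response to halauxifen-methyl, a synthetic auxin herbicide of the arylpicolinate class, was measured in leaves of *Erigeron canadensis* (horseweed) 1 h after spraying. Of the 32 leaf libraries of the series, 8 entered this comparison, chosen by their labels: 4 from rosettes sprayed with halauxifen-methyl at 5 g of acid equivalent per ha and 4 from rosettes sprayed with water. Both groups received a non-ionic surfactant, and all plants were of the glyphosate-resistant biotype at the rosette stage. Every library came from a single leaf of a separate plant, so that the spread between libraries includes the differences between plants. The question was which genes had changed by 1 h after treatment (HAT), and how far each call depended on a single library. For comparison, libraries at 1 HAT from plants sprayed with 2,4-D at 560 g or dicamba at 280 g of acid equivalent per ha were also used. Libraries of halauxifen-methyl and water at 6 HAT served in the same way.

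Auxin is perceived by TIR1/AFB F-box receptors, which target the AUX/IAA repressors for degradation once the hormone, or a herbicide that mimics it, is bound. The auxin response factors (ARFs) that the repressors had held back then act on early genes. In *Arabidopsis thaliana* these include further AUX/IAA genes, the SAUR genes, whose products promote cell expansion, and the GH3 genes, whose products conjugate auxin to amino acids.

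The deposited values were counts of reads per predicted gene, with totals of 12588842 to 21323988 per library. They are given here as CPM, counts scaled to the effective library size (TMM), and 14207 genes passed the filter on low counts. Over all tested genes the median correlation of log2 CPM within a group was lowest for halauxifen-methyl replicate 4, at 0.883. It was 0.905 for water replicate 4, 0.907 for halauxifen-methyl replicate 2 and 0.945 for water replicate 1. In photosynthesis transcripts a pair of libraries stood apart from the others. In halauxifen-methyl replicate 4 the summed level of 73 tested photosynthesis genes was 126418 CPM, and in water replicate 1 it was 232220 CPM, against 310623 to 357169 CPM in the other libraries. The 8 tested mesophyll markers, among them RBCS and LHCB genes, followed the same order, with 39222 and 69000 CPM in these libraries and 91669 to 106048 CPM elsewhere. In such bulk samples a smaller share of mesophyll cells and less of these transcripts per cell cannot be told apart. With both libraries left out, a choice made after seeing the data, 11 genes (0.0789%) were called higher and 0 lower by the quasi-likelihood test, and all 11 belong to the 25 described next.

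One hour after halauxifen-methyl, 25 genes were up-regulated and none was down-regulated at an adjusted p of 0.05 (quasi-likelihood test of edgeR, Benjamini-Hochberg adjusted). This is 0.176% of the genes tested. They comprised 7 SAUR genes, 3 AUX/IAA repressors, 2 ARFs, several DNA-binding factors, an expansin, a guard cell kinase and members of other families. Their log2 fold changes ran from 1.02 to 9.08 with a median of 2.14, while the median over all tested genes was 0.00. In each of the 25 genes every halauxifen-methyl library lay above every water library, which was the case for 2.08% of all tested genes, with a further 1.20% separated in the lower direction. The genes were chosen on these same libraries, so that this separation follows largely from the choice and is no separate evidence. DESeq2 and edgeR's exact test also called all 25.

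**Figure D1:**
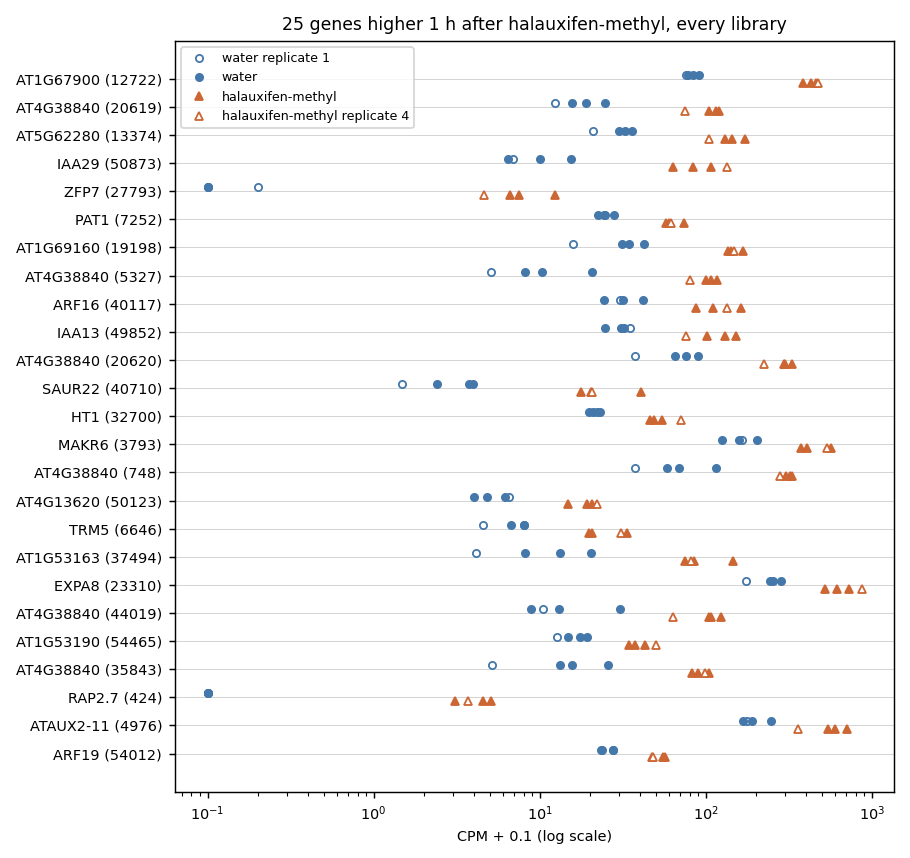
CPM + 0.1 on a log axis in each of the 8 libraries for the 25 called genes, ordered by p, with the number of the gene ID in brackets. Circles are water libraries and triangles halauxifen-methyl libraries, with water replicate 1 and halauxifen-methyl replicate 4 drawn open. In every row the triangles lie to the right of the circles.

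The smallest p belonged to HW_12722_g, whose best *A. thaliana* hit is AT1G67900, a member of the NPH3 family of phototropism-related proteins. Its level was 75.5, 83.7, 77.7 and 91.4 CPM in water replicates 1 to 4 and 387, 427, 463 and 473 CPM in halauxifen-methyl replicates 1 to 4. The groups were far apart and neither held a stray library. The log2 fold change was 2.41 ± 0.16 (SE, n = 4 per group), a 5.33-fold difference, with an adjusted p of 0.000483 in the quasi-likelihood test.

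The SAUR genes (small auxin up RNAs) were the most numerous family among the called genes. Of 67 annotated members 28 were tested, 7 were called higher and none lower. The median log2 fold change of the 28 was 1.43, and 14 of them were separated from water in the upper direction. Summed over the tested members, SAUR transcripts amounted to 350 to 951 CPM in the water libraries and 2019 to 2409 CPM after halauxifen-methyl. The remaining members included 6 with a log2 fold change below 0, and the lowest, HW_17628_g, stood at -0.70.

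Of the 7 called SAUR genes, 6 share AT4G38840 as their best *A. thaliana* hit, and reads of near-identical copies may have been split between them or lost in counting. HW_20619_g was measured at 12.3, 24.6, 15.6 and 18.8 CPM in water and at 121, 105, 115 and 75.0 CPM after halauxifen-methyl. Its log2 fold change was 2.54 ± 0.25 (quasi-likelihood adjusted p = 0.00689). Next to it on the same scaffold and strand lies HW_20620_g, at positions 5287 to 7838 against 559 to 2855, with no gene predicted in the 2431 bases between them. This neighbour was measured at 37.4, 75.4, 65.4 and 89.6 CPM in water and at 331, 297, 298 and 225 CPM after halauxifen-methyl. In both genes the lowest treated library was replicate 4, and it still exceeded the highest water library. The log2 fold change of HW_20620_g was 2.104 ± 0.27 (quasi-likelihood adjusted p = 0.0160).

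HW_5327_g rose from 5.02, 10.2, 8.01 and 20.5 CPM in water to 117, 100.1, 108 and 80.2 CPM, a 9.26-fold difference (log2 fold change 3.21 ± 0.39, quasi-likelihood adjusted p = 0.0149). HW_748_g was more abundant, with 37.5, 69.0, 58.2 and 115 CPM in water and 321, 331, 303 and 279 CPM after treatment (log2 fold change 2.14 ± 0.31, quasi-likelihood adjusted p = 0.0307). In both, water replicate 1 was the lowest and water replicate 4 the highest of the controls. The same held in HW_35843_g, a gene model with a single exon. Its levels were 5.07, 15.4, 13.1 and 25.8 CPM in water and 82.5, 89.6, 105 and 99.0 CPM after halauxifen-methyl (log2 fold change 2.66 ± 0.40, quasi-likelihood adjusted p = 0.0334). HW_44019_g gave 10.3, 13.0, 8.79 and 30.2 CPM in water and 105, 108, 123 and 63.3 CPM in treated leaves (log2 fold change 2.67 ± 0.40, quasi-likelihood adjusted p = 0.0334). Its highest water library and its lowest treated library were both replicate 4.

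SAUR22 (HW_40710_g) was the least abundant of the 7 per kb of coding length. It was found at 1.38, 3.86, 3.66 and 2.32 CPM in water and at 17.5, 20.3, 40.9 and 20.6 CPM after halauxifen-methyl. Replicate 3 lay well above the other treated libraries, yet the lowest treated library was still several-fold above the highest control. The log2 fold change was 3.15 ± 0.42 (quasi-likelihood adjusted p = 0.0194).

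AUX/IAA repressors were the second family with several called members. Of 12 tested members 3 were called higher and none lower, the median log2 fold change was 1.04 and 7 were separated from water in the upper direction. Their summed level was 858 to 1093 CPM in water and 1718 to 2143 CPM after halauxifen-methyl. IAA29 (HW_50873_g) changed by the largest ratio, from 6.81, 9.92, 6.35 and 15.3 CPM in water to 83.9, 63.0, 107 and 133 CPM. The lowest treated library lay far above the highest control, and the log2 fold change was 3.33 ± 0.35 (quasi-likelihood adjusted p = 0.00689). IAA13 (HW_49852_g) was at 35.0, 32.3, 24.5 and 30.7 CPM in water and at 152, 130, 101 and 75.5 CPM after treatment (log2 fold change 1.90 ± 0.24, quasi-likelihood adjusted p = 0.0149). ATAUX2-11 (HW_4976_g), also known as IAA4, was the most abundant of the 3, with 176, 246, 167 and 191 CPM in water and 706, 601, 546 and 361 CPM after treatment. In both of these genes halauxifen-methyl replicate 4 was the lowest treated library. The log2 fold change of ATAUX2-11 was 1.51 ± 0.24, with a quasi-likelihood adjusted p of 0.0435.

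Among the other repressors SHY2 (HW_18168_g) was separated from water, at 149 to 272 CPM against 427 to 521 CPM, but did not pass (log2 fold change 1.26 ± 0.23, quasi-likelihood adjusted p = 0.0931). A second IAA13 copy, HW_27084_g, and the genes HW_30812_g (IAA7) and HW_49729_g (IAA9) were also separated, with log2 fold changes of 1.504, 0.67 and 0.81. The other IAA9 copy, HW_30549_g, stood at 268 to 305 CPM in water and 302 to 327 CPM after halauxifen-methyl, with a log2 fold change of 0.13.

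Only 2 of the 21 tested ARFs were called, and the median of the list was 0.12. ARF16 (HW_40117_g), of the repressing class in *A. thaliana*, was measured at 30.4, 24.2, 31.8 and 41.7 CPM in water and at 87.5, 110, 164 and 134 CPM after halauxifen-methyl. Its log2 fold change was 1.95 ± 0.24 (quasi-likelihood adjusted p = 0.0149). ARF19 (HW_54012_g), a transcriptional activator in *A. thaliana*, gave 27.6, 23.7, 23.3 and 27.5 CPM in water and 56.5, 55.1, 47.4 and 47.9 CPM after treatment. This was the smallest called difference, 2.03-fold, but with little spread in either group (log2 fold change 1.02 ± 0.16, quasi-likelihood adjusted p = 0.0450). Further copies did not pass: the ARF16 copy HW_42126_g had a log2 fold change of 0.40, and the ARF19 copies HW_749_g and HW_27394_g had 0.43 and -0.42.

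Beside the auxin families, several genes annotated as DNA-binding or regulatory proteins were called. ZFP7 (HW_27793_g), a C2H2 zinc finger gene, was almost absent from water, with 0.102 CPM in replicate 1 and 0 in the others, and was found at 6.55, 7.44, 12.3 and 4.55 CPM after halauxifen-methyl. The 2 reads in water against 579 in treated leaves give a ratio of 226, with a counting interval of 62.3 to 1871 (95%, exact, counting error only), and the quasi-likelihood adjusted p was 0.0149. RAP2.7 (HW_424_g), an AP2-type factor that delays flowering in *A. thaliana*, had no read in any water library and 5.01, 4.43, 3.00 and 3.59 CPM after treatment. Against a floor of 3 reads per library, 0.261 CPM in the shallowest, its mean was at least 15.4-fold higher (quasi-likelihood adjusted p = 0.0334). For both genes the fitted log2 fold changes of 7.62 and 9.08 depend on the prior count and are not bounds.

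PAT1 (HW_7252_g), a GRAS-family gene of phytochrome A signalling in *A. thaliana*, had little spread, with 24.2, 22.3, 27.9 and 24.5 CPM in water and 73.3, 59.9, 57.3 and 61.6 CPM after halauxifen-methyl. The log2 fold change was 1.35 ± 0.16 (quasi-likelihood adjusted p = 0.0149). HW_50123_g, with the AP2/ERF-type gene AT4G13620 as its best hit, was at 6.45, 6.06, 4.70 and 3.91 CPM in water and 19.2, 14.6, 20.5 and 21.9 CPM in treated leaves (log2 fold change 1.85 ± 0.27, quasi-likelihood adjusted p = 0.0307). TRM5 (HW_6646_g), annotated as a CCCH zinc finger protein, gave 4.46, 6.66, 7.92 and 7.95 CPM in water. After halauxifen-methyl it was at 19.8, 20.5, 33.5 and 30.9 CPM, so that treated replicates 3 and 4 were the higher ones (log2 fold change 1.96 ± 0.29, quasi-likelihood adjusted p = 0.0329).

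The remaining called genes encode enzymes, wall proteins and proteins of less certain role. EXPA8 (HW_23310_g), an expansin of the type that loosens cell walls, was measured at 174, 254, 245 and 285 CPM in water and at 617, 521, 725 and 868 CPM after halauxifen-methyl. Its log2 fold change was 1.51 ± 0.23 (quasi-likelihood adjusted p = 0.0334), whereas the median of the 11 tested expansins was -0.33 and no other member was called. HT1 (HW_32700_g), a kinase of guard cell CO2 signalling in *A. thaliana*, was tightly grouped at 22.0, 19.8, 23.0 and 20.9 CPM in water and reached 54.7, 46.1, 48.7 and 71.2 CPM (log2 fold change 1.36 ± 0.19, quasi-likelihood adjusted p = 0.0251). The other 3 tested guard cell markers were KAT1 with a log2 fold change of -0.19, a second HT1 copy with 0.15 and OZS1 with 0.00, and none was separated from water.

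A pair of genes annotated as membrane-associated kinase regulators was called. MAKR6 (HW_3793_g) was at 166, 158, 126 and 204 CPM in water and 567, 375, 406 and 538 CPM after treatment (log2 fold change 1.53 ± 0.22, quasi-likelihood adjusted p = 0.0306). HW_37494_g (AT1G53163) was at 4.05, 13.1, 8.01 and 20.1 CPM in water and 85.0, 74.9, 146 and 81.1 CPM in treated leaves (log2 fold change 3.096 ± 0.46, quasi-likelihood adjusted p = 0.0334). The higher spread of the latter came from water, where the controls differed among themselves, and from treated replicate 3.

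HW_13374_g (AT5G62280, of the DUF1442 family) gave 20.8, 30.1, 35.9 and 32.7 CPM in water and 144, 130, 173 and 105 CPM after halauxifen-methyl (log2 fold change 2.21 ± 0.23, quasi-likelihood adjusted p = 0.00689). HW_19198_g (AT1G69160) stood at 15.9, 34.5, 31.2 and 42.3 CPM in water and 136, 141, 167 and 148 CPM after treatment (log2 fold change 2.26 ± 0.28, quasi-likelihood adjusted p = 0.0149). HW_54465_g (AT1G53190, a RING/U-box protein) gave 12.7, 17.3, 14.6 and 19.1 CPM in water and 34.2, 37.5, 42.7 and 49.9 CPM in treated leaves (log2 fold change 1.37 ± 0.21, quasi-likelihood adjusted p = 0.0334). In none of the 3 did a treated library reach down into the water range.

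The called genes differed widely in abundance. Per kb of coding length, ATAUX2-11 was at 361 CPM in water and 1025 CPM after halauxifen-methyl, EXPA8 at 323 and 922 CPM and MAKR6 at 235 and 677 CPM. At the other end TRM5 was at 2.83 and 10.99 CPM per kb and RAP2.7 at 0 and 3.196. The gene models were short, with a median coding length of 741 bases against 1173 over all tested genes, and 6 of the 25 (24%) had a single exon against 11.3%. The 7 called SAUR genes, at 300 to 618 bases, all lay below this median length, but only HW_35843_g among them had a single exon. Gene models in the draft annotation hold coding sequence only.

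**Figure D2:**
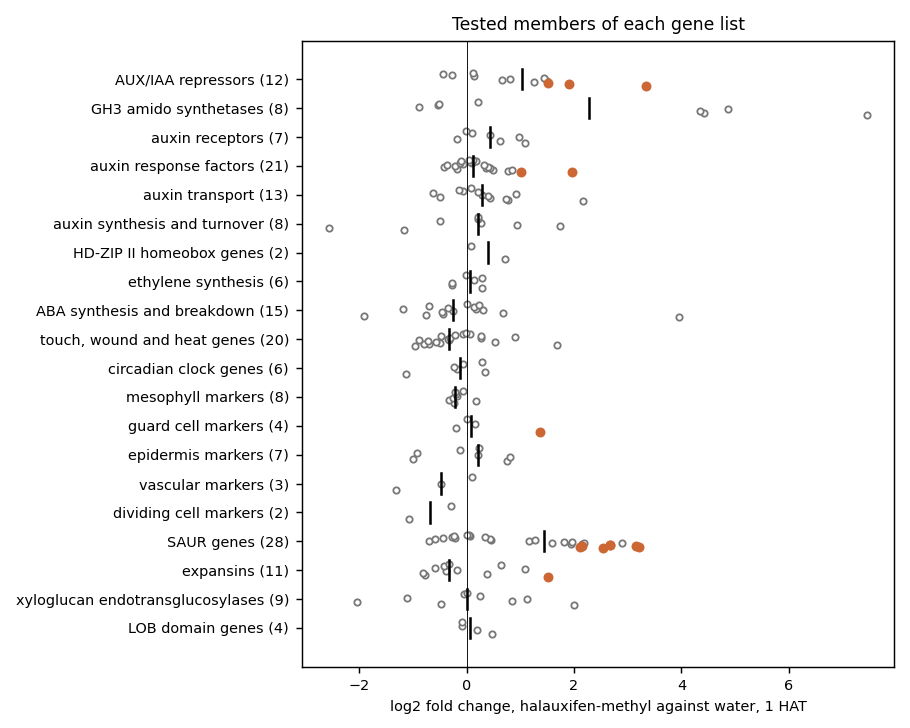
Log2 fold change of halauxifen-methyl against water at 1 HAT for the tested members of each gene list, with the number tested in brackets. Each circle is a gene, filled where it was called, and the black bar is the median of the list. The SAUR, AUX/IAA and GH3 lists have medians of 1.43, 1.04 and 2.28, and the other lists lie between -0.69 and 0.43.

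No GH3 gene was called by the quasi-likelihood test, while the exact test called WES1 and a GH3.1 copy, HW_53227_g, and DESeq2 also a DFL1 copy, HW_43852_g. HW_53227_g was at 1.23, 1.29, 0.522 and 0 CPM in water and at 35.3, 20.7, 8.95 and 1.17 CPM after treatment. Its treated replicate 4 lay within the water range. The 8 tested members fell into 4 with log2 fold changes of 4.35 to 7.47 and 4 at -0.88 to 0.21, among them both DFL2 copies and second copies of DFL1 and WES1, so that no member lies near the list's median of 2.28. WES1 (HW_7406_g), the GH3.5 homolog, had 1 read in the water libraries and 361 after halauxifen-methyl, a ratio of 282 with a counting interval of 50.3 to 11162 (95%, exact). Its treated libraries held 1.99, 1.33, 4.79 and 9.35 CPM, all above the controls, and its quasi-likelihood adjusted p was 0.0516. HW_8261_g, a GH3.1 copy singled out after its values were seen, was at 17.1, 2.73, 2.52 and 0.331 CPM in water and at 352, 292, 34.6 and 0.390 CPM after treatment. Here replicates 1 and 2 were high, replicate 3 was intermediate and replicate 4 lay within the water range (log2 fold change 4.87 ± 1.58, quasi-likelihood adjusted p = 1.00). The summed GH3 level followed it, with 419 and 344 CPM in treated replicates 1 and 2 against 88.7 and 59.3 CPM in replicates 3 and 4 and 33.2 to 97.4 CPM in water.

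In the other steps of auxin action the quasi-likelihood test called no gene. The auxin receptors had a median log2 fold change of 0.43 over 7 tested members, and the TIR1 copy HW_9710_g moved from 35.1, 18.0, 28.8 and 24.8 CPM to 44.5, 78.4, 62.5 and 39.7 CPM (log2 fold change 1.08 ± 0.27, quasi-likelihood adjusted p = 0.479). The other tested TIR1 copies, HW_2642_g, HW_7648_g and HW_7649_g, had log2 fold changes of 0.61, -0.17 and -0.01 with overlapping groups. For transport the median was 0.28 over 13 members. PIN4 (HW_18932_g), an auxin efflux carrier, was at 9.42, 17.4, 12.4 and 15.1 CPM in water and 40.6, 27.3, 59.7 and 115 CPM after treatment (log2 fold change 2.16 ± 0.42, quasi-likelihood adjusted p = 0.132). The exact test and DESeq2 called PIN4, with adjusted p of 0.000594 and 0.000161. In HW_9710_g and PIN4 the groups did not overlap. Auxin synthesis and turnover had a median of 0.21 over 8 members, with AT1G14130 (HW_46454_g) at -1.17 ± 0.52 nearest to the threshold.

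Genes of other hormones and of stress were likewise without calls in the quasi-likelihood test. NCED5 (HW_34273_g), an enzyme of the regulated step of abscisic acid (ABA) synthesis, was at 0.615, 0.227, 0.435 and 0.596 CPM in water and at 3.83, 3.25, 5.58 and 16.9 CPM after halauxifen-methyl. All treated libraries lay above all controls, with replicate 4 far above the others, and the log2 fold change was 3.95 ± 0.69 (quasi-likelihood adjusted p = 0.0799, exact test 0.000104, DESeq2 5.22e-06). Over the 15 tested genes of ABA synthesis and breakdown the median was -0.26. NCED3 (HW_373_g) had a log2 fold change of -0.45 with overlapping groups.

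The 6 genes of ethylene synthesis lay between -0.28 and 0.29 with a median of 0.06, and AT1G77330 (HW_15663_g), an ACC oxidase type gene, was nearest to the threshold at 0.29 ± 0.22. The 20 genes of touch, wound and heat had a median of -0.32, with AOS (HW_13814_g), the entry enzyme of jasmonate synthesis, at -0.97 ± 0.27. Its levels of 154, 152, 114 and 119 CPM in water and 106, 74.3, 52.5 and 43.7 CPM after treatment did not overlap, but its quasi-likelihood adjusted p was 0.716. STZ (HW_35396_g) of the same list went the other way, at 1.68 ± 0.51 with overlapping groups (quasi-likelihood adjusted p = 0.891). Homeobox genes of the HD-ZIP II class, with HB-2 at 0.71 ± 0.33, clock genes with TOC1 at -1.14 ± 0.75, and LOB domain genes with LBD37 at 0.46 ± 0.54 gave no call in the quasi-likelihood test. LBD16 (HW_34479_g), below the filter on low counts, was called higher by DESeq2, and at 6 HAT its log2 fold change was 6.73 (quasi-likelihood adjusted p = 0.00196). The xyloglucan endotransglucosylase TCH4 (HW_19929_g) had a log2 fold change of 1.99 ± 0.42 and an adjusted p of 0.196 in the quasi-likelihood test, was separated from water, and was called by the exact test and DESeq2.

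Markers of other leaf cell types did not pass either, apart from HT1. The copies of CER1, a wax gene of the epidermis, went both ways. HW_14099_g was at 0.74 ± 0.37 with overlapping groups, and HW_34268_g at -0.995 ± 0.50 with 19.2 to 31.5 CPM in water and 2.29 to 17.8 CPM after treatment, which did not overlap. The SEOR1 copies of the phloem were at -1.33 ± 0.95 and 0.09 ± 0.97 and the cytokinesis syntaxin SYP111 at -1.08 ± 0.85, with overlapping groups in each. LHCB2.1, of the mesophyll list, was at -0.24 ± 0.35. Of the photosynthesis list 73 genes were tested, none was called, and the median was -0.16, with PSAB nearest to the threshold at 1.09 ± 0.45.

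The response was entirely upward among called genes. At an unadjusted p under 0.05 the quasi-likelihood test gave 352 genes higher (2.48%) and 159 lower (1.12%), together 511 against 710 expected if no gene had changed. The lower gene nearest to the threshold was GLC (HW_17817_g), annotated as an acyltransferase, with 173, 183, 183 and 248 CPM in water and 116, 115, 114 and 82.3 CPM after halauxifen-methyl. Although its groups did not overlap, its log2 fold change of -0.88 ± 0.19 had a quasi-likelihood adjusted p of 0.229. MAPKKK15 (HW_8394_g) followed at -1.30 ± 0.31 and the carboxylesterase gene CXE18 (HW_14909_g) at -1.46 ± 0.39, with quasi-likelihood adjusted p of 0.370 and 0.598. AT1G07710 (HW_11869_g), an ankyrin repeat gene, and SAG20 (HW_22461_g), a senescence-associated gene, were at -0.69 ± 0.19 and -0.97 ± 0.27.

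DESeq2 called 6 genes lower (0.0362% of those it tested), namely GLC, MAPKKK15, CXE18, DCL3 (HW_20481_g), CYP707A1 (HW_20649_g) and AT5G41770 (HW_29633_g). Their levels were mostly low. DCL3, a Dicer of the small RNA pathway, was at 1.54, 0.606, 0.435 and 1.13 CPM in water with no read after treatment. Its water libraries held only 30, 8, 5 and 17 reads, and it was under the filter of the quasi-likelihood test. At 6 HAT its log2 fold change was -0.06, with water replicate 1 and halauxifen-methyl replicate 2 at 0 CPM. At 1 HAT, 2,4-D replicate 1 and dicamba replicates 3 and 4 were also at 0 CPM. CYP707A1, an ABA-degrading hydroxylase, fell from 2.96 to 8.03 CPM to 1.03 to 1.53 CPM. Of these 6, 5 were tested at 6 HAT in other plants and 1, CXE18, was called lower there at -2.62 ± 0.31 (quasi-likelihood adjusted p = 0.000452). Over all tested genes 6.13% were called lower at 6 HAT, and 5 genes are too few to set against this share.

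The number of calls depended strongly on single libraries. Without water replicate 1, 2, 3 or 4 the quasi-likelihood test called 14, 2, 1 and 34 genes higher (0.0969%, 0.0135%, 0.00676% and 0.23% of those tested). Without halauxifen-methyl replicate 1, 2, 3 or 4 it called 5, 20, 4 and 17 (0.0337%, 0.137%, 0.0276% and 0.118%). No gene was called lower in any of the 8 fits. Leaving out water replicate 3 thus ended 24 of the 25 calls, although this library was the shallowest and did not stand apart. Leaving out water replicate 4, the highest control for 14 of the 25 genes, ended only the calls of ATAUX2-11 and ARF19 and added 11 others.

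The 11 added genes included the SAUR genes HW_54408_g, HW_20494_g and HW_20493_g and the repressor SHY2, and a pair of NPH3-family genes. NPY5 (HW_20521_g), a root gravitropism gene in *A. thaliana*, was at 45.8, 51.2, 54.8 and 130 CPM in water and 180, 157, 213 and 206 CPM after halauxifen-methyl. HW_23844_g, a second gene with AT1G67900 as its best hit, was at 5.43, 3.79, 2.52 and 10.1 CPM in water and 22.4, 20.7, 17.9 and 18.3 CPM in treated leaves. In both, water replicate 4 was the highest control by a wide margin, and yet below every treated library. With all libraries their log2 fold changes were 1.43 ± 0.33 and 1.85 ± 0.40 (quasi-likelihood adjusted p = 0.310 and 0.216). PIF7 (HW_25434_g), a bHLH factor of shade signalling in *A. thaliana*, was at 19.1, 30.6, 19.7 and 45.1 CPM in water and 73.3, 67.9, 70.8 and 97.4 CPM after treatment. The others were AT3G13980, AT2G32560, the RING gene BRH1 and ELM1. Leaving out halauxifen-methyl replicate 2 added WES1, ESE3 and AT2G44500, for each of which that library was the lowest treated one. ESE3 (HW_22100_g), of the AP2/ERF type, was there at 6.65 CPM, just above the 6.09 CPM of water replicate 3, and at 16.6, 34.6 and 28.2 CPM in the other treated libraries. All 14 added genes were called by DESeq2 with all libraries, and 11 of them were called higher at 6 HAT, beside 8.55% of all tested genes.

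**Figure D3:**
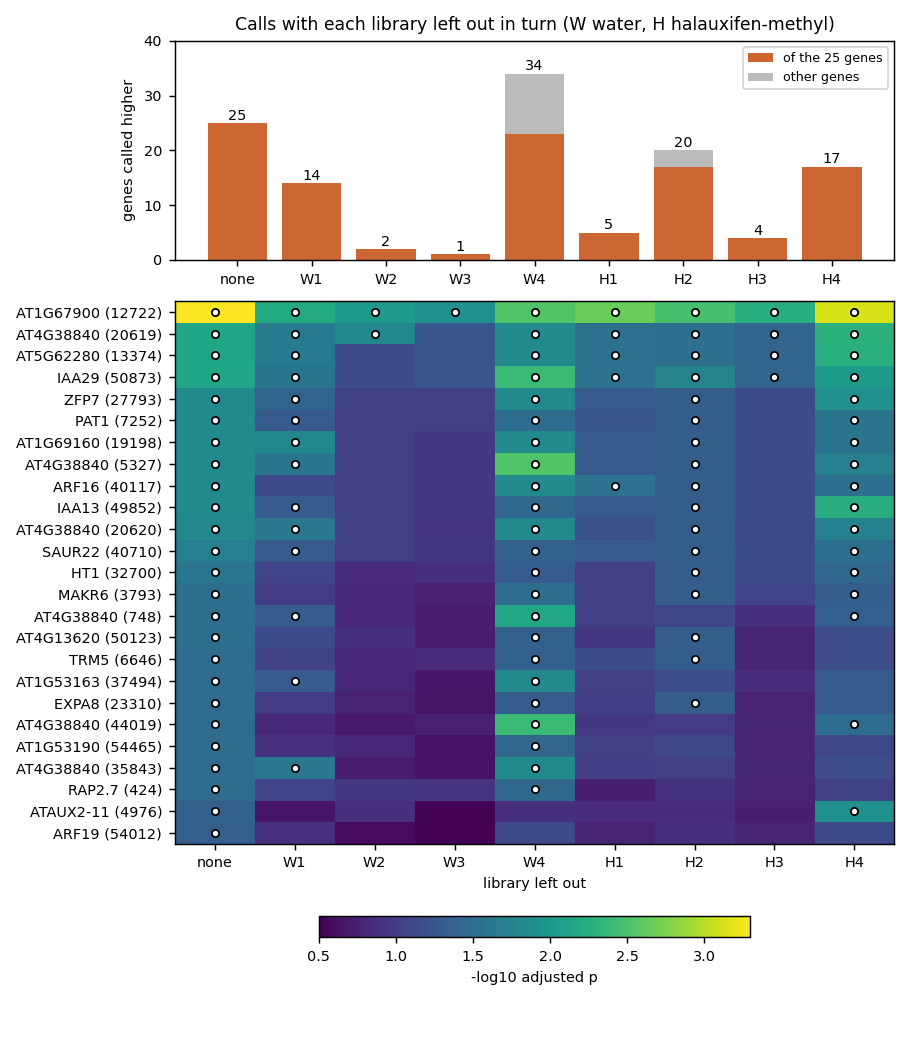
Top, the number of genes called higher with all libraries and with each water (W) or halauxifen-methyl (H) library left out, split into the 25 genes and others. Bottom, the -log10 adjusted p of each of the 25 genes in the same fits, with a white dot where it was called. Only the top row, AT1G67900, has a dot in all columns, and ARF19 has one only with all libraries.

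AT1G67900 (HW_12722_g) was called in all 8 fits, with adjusted p from 0.000739 to 0.0121 in the quasi-likelihood test and a log2 fold change from 2.37 to 2.47. The SAUR gene HW_20619_g was lost once, without water replicate 3, where its quasi-likelihood adjusted p was 0.0565. AT5G62280 and IAA29 were called in 6 fits. At the other end ARF19 was called in none of the 8, and AT1G53190, RAP2.7 and ATAUX2-11 in 1 each. ATAUX2-11 was called only without halauxifen-methyl replicate 4, its lowest treated library.

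The sizes of the changes moved as well, by different amounts. The fitted log2 fold change of ZFP7 went from 7.62 to 9.996 without water replicate 1, which held its only reads in water. Without water replicate 4 those of the SAUR genes HW_44019_g and HW_5327_g went from 2.67 to 3.21 and from 3.21 to 3.71. Without water replicate 3 the median log2 fold change of the 25 genes was 2.09 against 2.14 with all libraries, and the lowest was 0.98. The median SE rose from 0.27 to 0.31, the biological coefficient of variation over all genes from 0.547 to 0.618, and the median adjusted p from 0.0251 to 0.119 in the quasi-likelihood test. Across the 8 fits the coefficient ran from 0.514 to 0.618, and between 6 and 25 of the genes had an adjusted p of at most 0.10. In each of them all 25 genes were among the 50 with the smallest p, and the largest unadjusted p of any was 0.000553. All 25 kept a log2 fold change above 0 in every fit. With every treated library above every control in these genes, that sign was all but given beforehand. The ranks also come from libraries that chose the genes.

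The 25 genes were chosen on these 8 libraries, and the plants sampled at 6 HAT had no part in that choice. At 6 HAT 21 of the 25 were called higher in halauxifen-methyl against water of the same hour, where the share over all tested genes was 8.55%, and none was called lower. The same 21 were separated from water, against 13.9% of all genes, and 23 had a log2 fold change above 0, against 53.2%. The median of the 25 was 2.55 at 6 HAT. ZFP7 was at 0.119, 1.26, 0.989 and 0.794 CPM in water at 6 HAT and at 156, 129, 105 and 155 CPM after halauxifen-methyl, above its treated range at 1 HAT. The 7 SAUR genes were all called again, with log2 fold changes from 1.84 to 3.602. Those not called were EXPA8 (0.44 ± 0.25), AT1G53190 (0.07 ± 0.20), HT1 (-0.07 ± 0.19) and ARF16 (-0.20 ± 0.22).

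**Figure D4:**
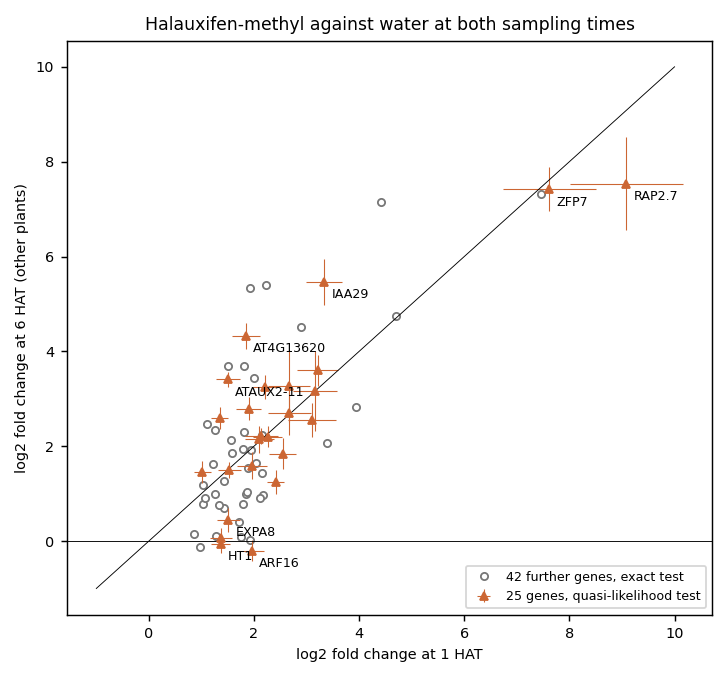
Log2 fold change of halauxifen-methyl against water at 1 HAT (x axis) and at 6 HAT in other plants (y axis). Triangles with SE bars are the 25 called genes, circles are 41 of the 42 further genes called by the exact test at 1 HAT, and the diagonal marks equal change. ARF16, HT1, AT1G53190 and EXPA8 lie near 0 at 6 HAT, while AT4G13620, IAA29 and ATAUX2-11 lie above the diagonal.

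A treatment by time interaction tested the difference itself. It was called for 8 of the 25 genes, 4 in each direction, against 5.49% of all genes (3.41% larger and 2.08% smaller at 6 HAT), but it uses again the 1 HAT libraries that chose them. The effect was larger at 6 HAT for AT4G13620 (difference in log2 fold change 2.48, quasi-likelihood adjusted p = 0.000258), IAA29 (2.15, adjusted p = 0.0269), ATAUX2-11 (1.90, adjusted p = 0.000519) and PAT1 (1.26, adjusted p = 0.0105). ATAUX2-11 was at 196, 164, 171 and 155 CPM in water at 6 HAT and at 1849, 1821, 1729 and 1872 CPM after halauxifen-methyl. AT4G13620 was at 11.1, 8.48, 8.97 and 7.83 CPM in water and at 154, 279, 130 and 168 CPM in treated leaves. In both genes the lowest treated library was several times the highest control. PAT1 was at 50.1, 53.6, 95.5 and 67.6 CPM in water at that hour and at 353, 409, 376 and 484 CPM after halauxifen-methyl.

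The effect was smaller at 6 HAT for ARF16 (-2.15, quasi-likelihood adjusted p = 0.000799), HT1 (-1.43, adjusted p = 0.00359), AT1G53190 (-1.30, adjusted p = 0.0111) and AT1G67900 (-1.17, adjusted p = 0.0326). The mean water level was higher at 6 HAT in these 4, and also in PAT1, IAA29 and AT4G13620, whose effect was larger. ARF16 stood at 72.8 to 144 CPM in water at 6 HAT against 24.2 to 41.7 CPM at 1 HAT, and HT1 at 43.3 to 56.5 against 19.8 to 23.0 CPM. AT1G67900 was at 154, 218, 254 and 252 CPM in water at 6 HAT and at 380, 370, 709 and 622 CPM after halauxifen-methyl (log2 fold change 1.24 ± 0.26, quasi-likelihood adjusted p = 0.00979). CPM at 1 and 6 HAT were scaled separately, and what raised the water levels was not tested.

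The genes just outside the threshold were examined in the same way. The next 5 by p were WES1, the SAUR gene AT2G21210 (HW_54408_g), OFP3 (HW_6464_g), an F-box gene AT2G32560 (HW_26435_g) and a further SAUR gene HW_20494_g, with quasi-likelihood adjusted p of 0.0516 to 0.0799. HW_54408_g was at 19.8, 38.5, 33.6 and 62.6 CPM in water and 147, 134, 183 and 128 CPM after treatment, and HW_20494_g at 42.7, 66.5, 70.1 and 166 against 354, 330, 441 and 409 CPM. In the water libraries of both, replicate 1 was again lowest and replicate 4 highest. At 6 HAT WES1, HW_54408_g, HW_26435_g and HW_20494_g were called higher and OFP3 was not.

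The exact test called 67 genes higher at 1 HAT (0.472%) and DESeq2 78 (0.471%), and the 67 were all among the 78. Beyond the 25, the 42 genes of the exact test had a median log2 fold change of 1.81, and 6 of them were SAUR, 2 AUX/IAA and 2 GH3 genes. NCED5, PIN4, TCH4, PIF7, NPY5 and ESE3 are further members of this set, as is the DELLA gene GAI at 0.85. Of the 41 tested at 6 HAT, 25 (61.0%) were called higher in the other plants and none lower. The 11 genes that only DESeq2 added included 8 of 10 called higher at 6 HAT. Among the 277 genes with an unadjusted p under 0.05 that no test called higher, 44 of 274 (16.1%) were higher and 18 (6.57%) lower at 6 HAT. Of the 159 genes lower at that unadjusted level, 30 of 156 (19.2%) were called higher and 22 (14.1%) lower at 6 HAT, beside 8.55% higher and 6.13% lower over all genes.

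The 25 genes were compared directly with the libraries of the other auxin herbicides at 1 HAT, 2,4-D at 560 g and dicamba at 280 g of acid equivalent per ha. Neither comparison called any of the 25 in the quasi-likelihood test, while 0.475% of all genes differed from 2,4-D and 0.355% from dicamba in either direction. Doses differed between the herbicides, and the treated libraries compared are those that chose the genes. Against 2,4-D the 25 log2 differences ran from 0.02 to 1.31 with a median of 0.47, all above 0, and 9 had an unadjusted p under 0.05. Against dicamba 9 were above 0 and 16 below, from -0.92 to 1.14. In each comparison the 95% interval lay within a 2-fold difference for 14 genes and reached beyond it for 11, so that larger differences were not excluded for the latter.

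PAT1 came closest to a difference in both. It was at 38.4, 25.1, 31.3 and 33.1 CPM after 2,4-D and at 32.2, 35.1, 25.01 and 36.9 CPM after dicamba, all below the 57.3 to 73.3 CPM of the halauxifen-methyl libraries. CPM were scaled within each pair of groups, so that levels of different herbicides set side by side rest on separate scalings. The log2 difference was 0.93 from 2,4-D (quasi-likelihood adjusted p = 0.0789) and 0.96 from dicamba (adjusted p = 0.0784). AT1G67900 was nearly level, with a log2 difference of 0.31 from 2,4-D and -0.17 from dicamba (quasi-likelihood adjusted p = 0.680 and 0.931). Its level was 342, 349, 287 and 377 CPM after 2,4-D and 409, 592, 472 and 475 CPM after dicamba. The 95% intervals of these differences were -0.05 to 0.67 and -0.58 to 0.25.

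**Figure D5:**
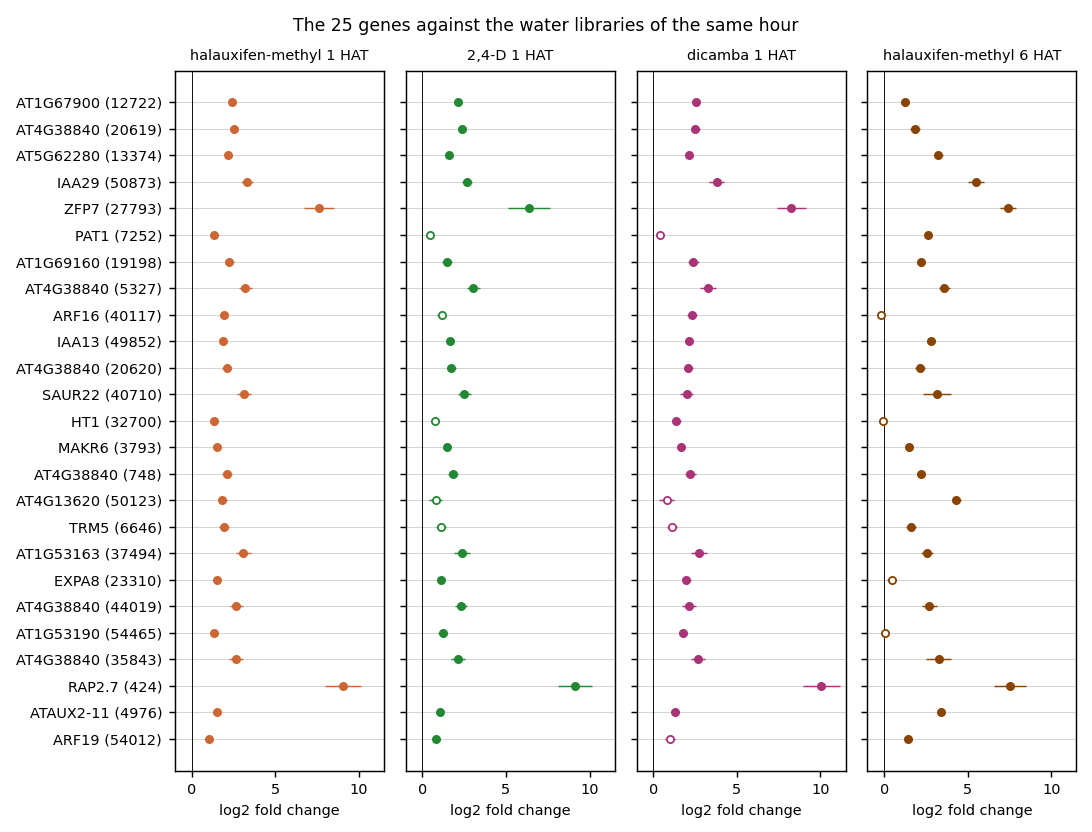
Log2 fold change with SE of the 25 genes against the water libraries of the same hour, for halauxifen-methyl, 2,4-D and dicamba at 1 HAT and halauxifen-methyl at 6 HAT. Filled points passed the adjusted threshold. The first 3 panels share their water libraries, and PAT1, AT4G13620 and TRM5 are open after both 2,4-D and dicamba.

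Each herbicide was also set against the same 4 water libraries, so that these comparisons are not independent of one another. Of the 25 genes 20 were called higher after 2,4-D, with 0.898% of all genes called higher there, and 21 after dicamba, with 1.23%. The median log2 fold change of the 25 was 1.67 after 2,4-D and 2.14 after dicamba. PAT1 stood at 0.43 after 2,4-D and 0.38 after dicamba against 1.35 after halauxifen-methyl, and AT4G13620 at 0.79 and 0.80 against 1.85. The levels of AT4G13620 were 8.54, 9.03, 4.28 and 13.4 CPM after 2,4-D and 11.7, 8.47, 13.4 and 3.47 CPM after dicamba, overlapping with water in each, whereas halauxifen-methyl libraries were at 14.6 CPM or more. TRM5 was at 1.10 after either herbicide against 1.96. For AT4G13620 and TRM5 the direct log2 differences of halauxifen-methyl from 2,4-D and dicamba did not pass. They were 1.06 and 1.03 for AT4G13620 (quasi-likelihood adjusted p = 0.353 and 0.602). For TRM5 they were 0.86 and 0.84 (quasi-likelihood adjusted p = 0.342 and 0.468). RAP2.7, with no read in water, was found at 2.40, 4.21, 4.38 and 4.25 CPM after 2,4-D and at 9.52, 9.73, 8.27 and 2.49 CPM after dicamba and was called after each.

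Genes that did not pass after halauxifen-methyl could pass after the other herbicides. NCED5 was at 15.6, 22.2, 12.2 and 17.4 CPM after 2,4-D and at 12.2 to 18.6 CPM after dicamba, where only replicate 4 of halauxifen-methyl, at 16.9 CPM, reached that range. Against water its log2 fold change was 5.18 after 2,4-D and 4.98 after dicamba (quasi-likelihood adjusted p = 8.95e-05 and 9.45e-05). The direct log2 differences of halauxifen-methyl from them were -1.25 and -1.05 and did not pass (quasi-likelihood adjusted p = 0.537 and 0.770). WES1, by contrast, passed neither after halauxifen-methyl nor after dicamba (quasi-likelihood adjusted p = 0.0516 and 0.0688). For 2,4-D against water it was not tested, being under the filter on low counts. Its level was 4.43, 0.221, 0 and 0.637 CPM after 2,4-D and 1.47, 0.915, 1.35 and 2.05 CPM after dicamba. Its direct log2 differences of 1.66 and 1.58 did not pass (quasi-likelihood adjusted p = 0.794 and 0.765).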

How the data were processed

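Per the paper's methods and the labels, the authors checked and trimmed the reads (FastQC 0.11.2 and the FASTX-Toolkit), aligned them with STAR 2.5.2b to a draft *E. canadensis* genome, and counted reads per GeneMark gene with HTSeq 0.6.1. The counting mode and strand setting are not given in the sources used here. The matrix the authors deposited holds raw counts of 54498 genes, 30795 of them with 0 counts in these 8 libraries. Gene names are the authors' best *A. thaliana* hits, and 812 of the tested genes have none.

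Counts were fitted in 8 libraries per comparison with edgeR 4.0.16 in R 4.3.3 (TMM, filterByExpr with a minimum count of 10, quasi-likelihood test, Benjamini-Hochberg threshold 0.05). The interaction used 16 libraries. DESeq2 1.42.0, edgeR's exact test and the other alternatives of the closing section were run on the same counts. Each SE is the log2 fold change divided by the square root of the F statistic of the quasi-likelihood test. The 95% intervals of log2 differences were built from the same SE. Intervals of count ratios are exact at 95% and cover counting error only. Figures were drawn with matplotlib 3.10.9.

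Named are all called genes, the next 5 by adjusted p, the 5 lower genes with the smallest p, those called lower by DESeq2, and for each list its called members or the member with the smallest p. Others were picked after their values were seen. Members and lists were chosen with earlier results of these data known. Replicate numbers mark separate plants and were not used to pair libraries. No pair of libraries of a group agreed within sampling noise, with a chi-square per degree of freedom of 19.6 or more. Sequences were not used here.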

Additional observations from a re-analysis of the deposited data

Results flagged for a closer look

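In 4 of 60 groups of 4 libraries examined, 1 library lay far from the other 3 by Dixon's test, which chance alone gives in about 1 of 20 groups. ZFP7 was at 0.102 CPM in water replicate 1 and at 0 in the other water libraries, and WES1 at 0.0757 CPM in water replicate 2 and at 0 in the others. These are 2 reads and 1 read, under the floor of 3 reads per library, and with 3 libraries at 0 any read gives such a result, so that nothing is read from them. In halauxifen-methyl replicate 3, SAUR22 stood at 40.9 CPM against 17.5 to 20.6 CPM in the other treated libraries, and AT1G53163 at 146 against 74.9 to 85.0 CPM.

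For 8 of the 25 genes the halauxifen-methyl effect differed between 1 and 6 HAT in the interaction test. The log2 fold change at 6 HAT minus that at 1 HAT was 2.48 for AT4G13620, 2.15 for IAA29, 1.90 for ATAUX2-11 and 1.26 for PAT1. It was -2.15 for ARF16, -1.43 for HT1, -1.30 for AT1G53190 and -1.17 for AT1G67900.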

How the results depend on the processing

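The 25 genes called higher became 78 with DESeq2, 67 with the exact test, 41 without the low-count filter, 38 with all 16 libraries of 1 HAT in one fit and 53 with all 32, and 1 to 34 with a library left out in turn. With water replicate 1 and halauxifen-methyl replicate 4 both left out there were 11. The size factors of DESeq2 gave 23, at least 10 counts in every library 25 (ZFP7 and RAP2.7 were then not tested) and a robust prior spread 27. The 0 genes called lower became 6 with DESeq2 and 1 with all 32 libraries. With the replicate number as a block 29 genes were called higher, 20 of them among the 25, and 1 lower. Deviations of same-numbered libraries correlated at -0.02 to 0.41, and only replicate 4 correlated best with its own number. So few correlations do not settle whether same-numbered plants shared a block. Of the 25, the genes differing from 2,4-D numbered 2 with DESeq2 and 1 with the exact test or with at least 10 counts in every library, and from dicamba 2 and 1 with the former tests. The share of all genes called in these settings is not given here, so that nothing is read from these counts. The exact test was not run for the interaction, which it cannot fit. No called gene changed direction in any alternative, which the separation of their groups in these libraries left little room for. LBD37, not called, ranged from -0.33 without halauxifen-methyl replicate 4 to 0.81 without water replicate 4 and was -0.57 without the former library and water replicate 1. The causes were not tested. Depths were 12588842 to 21323988 counts, and genes under the floor of 3 reads in a library could not be told from absent there.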
